A study of Mus musculus with 11 samples.

Results

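The genes described here encode the scaffold proteins of the postsynaptic density, the protein layer under the membrane of excitatory synapses. A fixed list of 9 gene symbols chose them, namely Dlg4, Shank1, Shank2, Shank3, Homer1 and Dlgap1 to Dlgap4. The table of 14864 genes holds 8 of them, and all 8 passed the filter on low values (a mean CPM, the count scaled to library size, of at least 1). Shank3 is not analysed here.

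Within the density, the scaffolds are stacked in layers. Dlg4 encodes PSD-95, which lies closest to the membrane and holds glutamate receptors and adhesion proteins. The Dlgap genes encode the SAPAP or GKAP proteins, which bind PSD-95 on one side and the Shank proteins on the other. The Shank proteins lie deeper and bind Homer1, which links them to group I metabotropic glutamate receptors and to calcium release channels inside the cell. Variants of several of these genes are known from studies of autism and related disorders.

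Total RNA was sequenced from adult mouse hypothalamus, a region with many peptide-releasing neurons, at an age of 60 to 70 postnatal days. The libraries were labelled WT (2 females and 3 males) or Het (3 females and 3 males). Het is read here, from the title of the series, as heterozygous loss of Myt1l, which encodes a neuronal zinc finger protein that acts on transcription. The labels give no allele, strain, drug or other treatment, and the replicate numbers below are those of the labels. Each library is taken as a separate animal, which the labels' numbers imply without stating it, so the p-values measure the spread between libraries.

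Values are CPM recovered from a deposited log2 table that had already been corrected for unwanted variation. The libraries held 22921048 to 24941704 corrected counts each, so that a single count is worth 0.04174 to 0.04225 CPM. Myt1l had 76.3 ± 15.9 CPM (SD, n = 5) in WT and 76.3 ± 26.9 CPM (SD, n = 6) in Het, and the library labelled WT replicate 11 was the lowest at 51.1 CPM while Het replicate 9 was the highest at 130 CPM. The labels do not say which bases are mutated, so this level does not check the genotype labels. Where a list below has called genes, the count without those 2 libraries is also given. The genes of hypothalamic neurons (17 tested) had summed levels of 3675 to 4614 CPM in WT and 2631 to 3917 CPM in Het. A list of 15 striatal neuron markers, genes of a neighbouring region, summed to 2044 to 2620 CPM in WT and 2391 to 4293 CPM in Het. In tissue pieces, fewer cells of a type and less RNA per cell cannot be told apart.

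Promoter windows are shown as sequence context for 3 members, Homer1, Dlg4 and Dlgap4, which did not pass the genotype test below. No window was found for Dlgap2, the member that passed. RefSeq windows of 250 bases before a start on build GRCm38.p6 were found for 5 members, with 9 windows in all (Dlg4, Homer1, Dlgap1, Dlgap3 and Dlgap4). The letters AAGTT, the core bound by the Myt1 family of zinc fingers, and TGACG, the core of the cyclic AMP response element, were searched on both strands. TGACG was chosen after the sequences were seen. Each of the following windows lies on the plus strand and is written 5′ to 3′, with matches in capitals.
Homer1, chr13:93303507-93303756: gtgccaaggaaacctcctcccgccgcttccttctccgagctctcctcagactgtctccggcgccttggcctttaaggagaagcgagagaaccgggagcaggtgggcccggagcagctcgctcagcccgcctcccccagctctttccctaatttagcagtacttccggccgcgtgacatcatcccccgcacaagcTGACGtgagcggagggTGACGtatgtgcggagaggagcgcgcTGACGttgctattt
Dlg4, chr11:70023732-70023981: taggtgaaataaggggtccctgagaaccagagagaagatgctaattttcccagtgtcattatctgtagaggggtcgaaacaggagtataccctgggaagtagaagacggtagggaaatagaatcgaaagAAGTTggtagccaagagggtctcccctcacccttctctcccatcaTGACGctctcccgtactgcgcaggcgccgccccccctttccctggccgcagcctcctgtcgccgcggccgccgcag
Dlgap4, chr2:156720715-156720964: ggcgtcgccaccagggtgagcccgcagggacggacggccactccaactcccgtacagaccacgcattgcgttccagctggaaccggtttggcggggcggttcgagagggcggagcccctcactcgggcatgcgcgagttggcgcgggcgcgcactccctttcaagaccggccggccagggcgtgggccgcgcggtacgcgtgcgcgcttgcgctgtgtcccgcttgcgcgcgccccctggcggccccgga
The Homer1 window shown held TGACG 3 times and no AAGTT, and 62.4% of its bases were G or C. The other Homer1 window held AAGTT 1 time and no TGACG. The Dlg4 window shown, 1 of 3, held each motif 1 time at 56.8% G or C, and another Dlg4 window held neither. The single Dlgap4 window held neither at 74.0%. The windows shown were chosen after their motifs were seen. Over the 9 windows of the members, 6 held AAGTT and 2 held TGACG, against 35.3% and 17.8% of the 32851 windows in the table. A match is a description of letters and not a binding site.

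The members differed widely in level. Per kilobase of the longest annotated transcript, the WT level was 10.2 ± 0.542 CPM per kb (SD, n = 5) for Dlgap4, which stood above every other member in every WT library. Dlg4 followed at 4.88 ± 0.521, Dlgap1 at 4.59 ± 0.780 and Homer1 at 3.42 ± 0.986 CPM per kb, and the ranges of neighbours among these 3 overlapped. Dlgap2 lay lower, at 1.82 ± 0.294 CPM per kb, without overlap with Homer1. Shank1 at 0.472 ± 0.104, Shank2 at 0.439 ± 0.133 and Dlgap3 at 0.323 ± 0.230 CPM per kb closed the order. Shank1 did not overlap Dlgap2, while Shank1 with Shank2 and Shank2 with Dlgap3 did overlap. Per kilobase of all annotated exons the order was the same, but Homer1 and Dlgap2 then overlapped. In Het libraries the level per kilobase of the longest transcript was 12.1 for Dlgap4, 5.82 for Dlg4, 4.96 for Dlgap1, 4.49 for Homer1, 2.87 for Dlgap2, 0.612 for Shank2, 0.554 for Shank1 and 0.348 CPM per kb for Dlgap3.

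**Figure D1:**
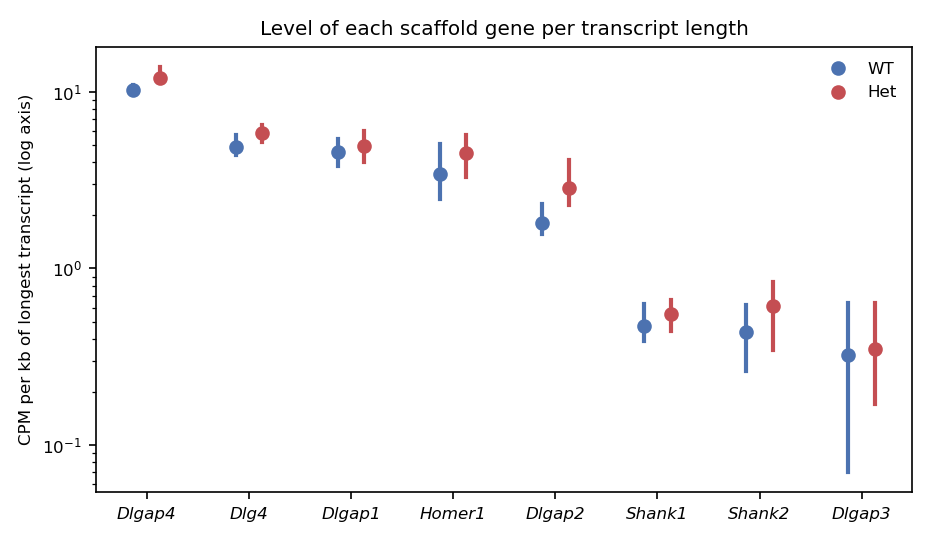
Level of each of the 8 scaffold genes per kilobase of its longest annotated transcript (CPM per kb, log axis), with the mean as a point and a line from the lowest to the highest library, for WT (5) and Het (6). Dlgap4 is the highest member at 10.2 CPM per kb in WT, and Shank1, Shank2 and Dlgap3 lie between 0.323 and 0.472.

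Genotype differences were tested with limma on log2(CPM + 0.5), with genotype and sex as terms, over 13184 genes, at a Benjamini-Hochberg adjusted p of 0.05. A difference in log2 below is Het minus WT on that scale. Dlgap2 rose in Het, and the other 7 members did not pass the test. Over all genes, 3.44% were called in either direction and 2.3% were called higher in Het, so 1 of 8 members is to be read against that share. All 8 differences were positive, against 47.0% of all genes tested. Their median was 0.252, against -0.016 over all genes, and 5 members had an unadjusted p under 0.05, as had 22.3% of all genes.

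**Figure D2:**
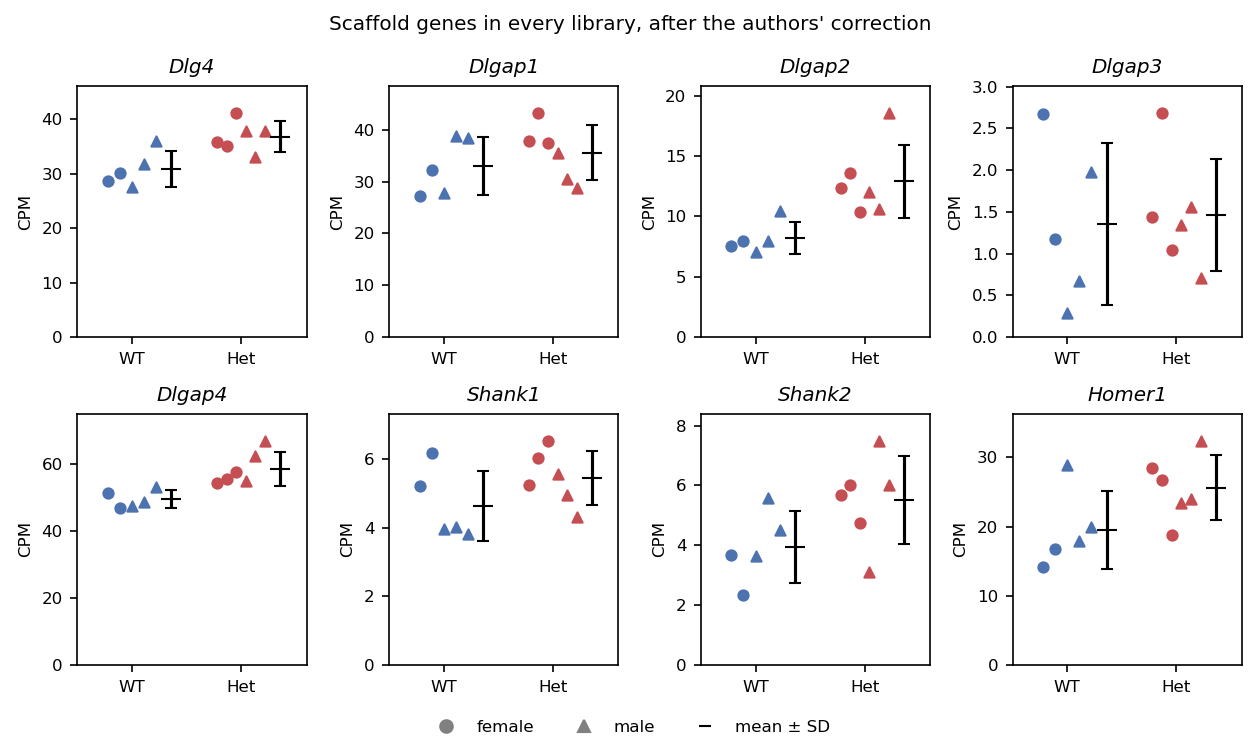
CPM of each scaffold gene in every library, WT (5) and Het (6), with females as circles, males as triangles, and the group mean ± SD beside them. Dlgap2 had a mean of 8.19 CPM in WT and 12.9 CPM in Het, and Dlgap4 is the member whose Het libraries all lie above its WT libraries.

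The Dlgap genes, the linkers between PSD-95 and Shank, held both the clearest and the weakest differences. Dlgap2 (ENSMUSG00000047495, chr8:14095865-14847680 on mm10) had 7.56 and 7.93 CPM in the WT females and 7.04, 7.97 and 10.5 CPM in the WT males. Its Het libraries ran from 10.3 to 18.6 CPM with a median of 12.2. All 6 Het libraries lay above the WT mean and 5 lay above the highest WT library, WT replicate 11. The means were 8.19 ± 1.32 CPM (SD, n = 5) and 12.9 ± 3.01 CPM (SD, n = 6). The difference was 0.62 in log2 (SE 0.148, limma adjusted p = 0.0327), a 1.54-fold rise with a 95% interval of 1.24 to 1.91. Of all genes, 0.592% had a difference at least as large.

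The Dlgap2 call rested on several single libraries and on the error estimate. With 1 residual degree of freedom taken off, as an allowance for the correction made before deposit, the difference was 0.623 and the limma adjusted p 0.0584. Without a trend in the prior the limma adjusted p was 0.0667. Leaving out WT replicate 4 (0.617, limma adjusted p = 0.0683), replicate 6 (0.639, 0.0784) or replicate 7 (0.604, 0.0702) ended it. Among the Het libraries, so did leaving out number 2 (0.617, limma adjusted p = 0.0638), number 4 (0.592, 0.0610) or number 9 (0.506, 0.0725). It held without both WT replicate 11 and Het replicate 9, at 0.584 (limma adjusted p = 0.0392). Within the identifier prefixes of the labels, whose meaning is not given, the difference was 0.562 among 4 male libraries and 0.660 among 6 libraries of both sexes, neither past the test. All 8 members were positive in the first of these sets and 7 of 8 in the other. With the mean of the striatal markers as a covariate it was 0.146 (limma adjusted p = 0.746), and with that of the pan-neuronal genes 0.747 (limma adjusted p = 0.161). The striatal mean, in log2 minus its average, ran from -0.43 to 0.017 over the WT libraries and from -0.036 to 0.678 over the Het libraries. It thus largely followed genotype, and this fit cannot tell the marker level and genotype apart. The part of the striatal markers in the difference was not tested.

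Dlgap4 (ENSMUSG00000061689, chr2:156613705-156764363), the most abundant linker, had 51.3 and 46.9 CPM in the WT females and 47.4, 48.5 and 53.0 CPM in the WT males. Its Het libraries ran from 54.2 to 66.9 CPM with a median of 56.4. Every Het library was above every WT library, which held for 2.02% of all genes. The difference of 0.25 in log2 (SE 0.0695) did not pass the test at a limma adjusted p of 0.0596, from means of 49.4 ± 2.63 CPM (SD, n = 5) and 58.5 ± 5.08 CPM (SD, n = 6). With the identifier prefix as a block, a fit that gives WT replicate 4 no weight, it was 0.281 and passed (limma adjusted p = 0.0495). With the striatal covariate it was 0.073. Dlgap4 passed in 2 of 31 alternative settings, and in 0 of the 11 runs that left out 1 library. The gene 4930405A21Rik on the opposite strand shares 24 exonic bases with it, and no source names the strand setting of the counting.

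Dlgap1 (ENSMUSG00000003279, chr17:69969073-70821413) overlapped between genotypes. Its WT libraries had 27.3 and 32.3 CPM in females and 27.8, 38.9 and 38.5 CPM in males, and its Het libraries ran from 28.8 to 43.2 CPM with a median of 36.5. The difference of 0.10 in log2 (SE 0.119) had a 95% interval of -0.148 to 0.355, with a limma adjusted p of 0.645. The 3 Het females lay above both WT females, while the 3 Het males had a mean of 31.6 CPM against 35.1 in the WT males. The genotype by sex term was -0.539 (SE 0.205, unadjusted p = 0.0191), and its limma adjusted p was 0.982.

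Dlgap3 (ENSMUSG00000042388, chr4:127169204-127237022) was the lowest member in CPM. Its WT libraries had 2.67 and 1.18 CPM in females and 0.295, 0.671 and 1.98 CPM in males, and its Het libraries ran from 0.714 to 2.68 CPM with a median of 1.39. These stand for 7 to 64 corrected counts. The difference of 0.13 in log2 had a 95% interval of -0.531 to 0.794 (limma adjusted p = 0.840), an interval that holds 0 as well as a rise of the size seen for Dlgap2. As a share of the summed Dlgap level per kb, Dlgap2 made up 10.7 ± 0.878% (SD, n = 5) in WT and 14.1 ± 2.51% (SD, n = 6) in Het, and Dlgap4 60.4 ± 3.14% and 59.6 ± 3.81%. These shares are given as a description and were not tested.

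Dlg4 (ENSMUSG00000020886, chr11:70016942-70047522), the gene of PSD-95, had 28.6 and 30.1 CPM in the WT females and 27.7, 31.8 and 36.1 CPM in the WT males. Its Het libraries ran from 33.1 to 41.2 CPM with a median of 36.8. All 6 were above the WT mean of 30.8 ± 3.30 CPM (SD, n = 5), and 3 were above the highest WT library. The difference was 0.26 in log2 (SE 0.0849), a 1.20-fold ratio, and did not pass the test at a limma adjusted p of 0.0958. Without WT replicate 11, its highest WT library, it was 0.312 and passed at a limma adjusted p of 0.0492. Dlg4 passed in only this 1 of 11 runs that left out 1 library, and in 2 of 31 alternative settings in all.

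The Shank genes, which encode the deep scaffold, were both low. Shank2 (ENSMUSG00000037541, chr7:144001928-144424494) had 3.67 and 2.35 CPM in the WT females and 3.63, 5.58 and 4.50 CPM in the WT males. Its Het libraries ran from 3.10 to 7.49 CPM with a median of 5.83, and the groups overlapped. The difference of 0.46 in log2 (SE 0.214) had a 95% interval of 0.003 to 0.909 and a limma adjusted p of 0.221. These levels stand for 56 to 178 corrected counts, and with the striatal covariate the difference was -0.066.

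Shank1 (ENSMUSG00000038738, chr7:44310253-44360572) had 5.22 and 6.17 CPM in the WT females and 3.96, 4.03 and 3.82 CPM in the WT males. Its Het libraries ran from 4.32 to 6.54 CPM with a median of 5.41. Here the overlap came through the females, and the 3 Het males lay above the 3 WT males. The genotype difference was 0.19 in log2 (SE 0.137, limma adjusted p = 0.441). Shank1 was the member with the smallest p for sex, at -0.346 in log2 for males minus females (SE 0.137, unadjusted p = 0.0224, limma adjusted p = 0.319). The gene 1700008O03Rik on the opposite strand shares 339 exonic bases with it.

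Homer1 (ENSMUSG00000007617, chr13:93299635-93405129), which has a short isoform known to be induced by neuronal activity, had 14.2 and 16.7 CPM in the WT females and 28.9, 17.9 and 20.0 CPM in the WT males. Its Het libraries ran from 18.7 to 32.4 CPM with a median of 25.4. WT replicate 3 stood above 5 of the 6 Het libraries, and the groups overlapped. The difference was 0.43 in log2 (SE 0.146, limma adjusted p = 0.101), and without WT replicate 3 it was 0.552 and passed (limma adjusted p = 0.0174). Homer1 passed in only this 1 of 31 alternative settings, over which the difference ran from 0.058 to 0.64. Counts per gene do not separate the short isoform from the long ones. Of 14 immediate early genes, which neuronal activity induces, 6 rose (Egr1, Egr2, Egr3, Arc, Nr4a1 and Fosl2) and none fell. Over all genes, 2.3% were called higher in Het. Of the 14 genes, 10 were positive and the median was 0.476. Fos (-0.084), Nr4a2 (-0.076), Ier2 (-0.194) and Dusp1 (-0.372) were negative. The number that rose was 4 without WT replicate 11 and Het replicate 9, 4 with 1 residual degree of freedom taken off, and 0 with the striatal covariate. Their part in the Homer1 level was not tested. With the striatal covariate the difference was 0.315.

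**Figure D3:**
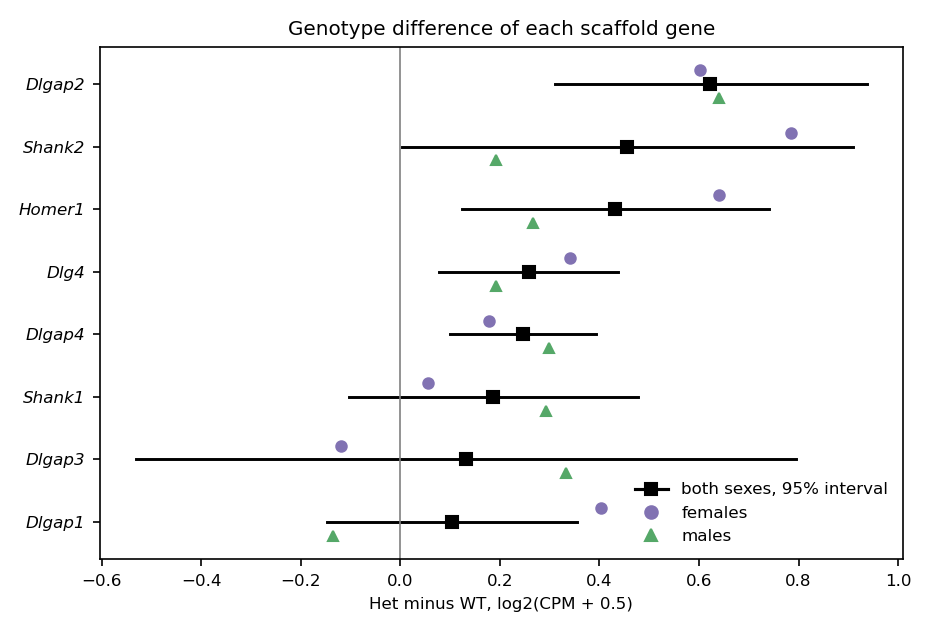
Difference Het minus WT in log2 for each scaffold gene over all 11 libraries, as a square with its 95% interval from limma, and for females and males apart without intervals. All 8 points over both sexes are positive, from 0.10 for Dlgap1 to 0.62 for Dlgap2.

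The sexes were compared by the interaction term and side by side. In females, 6 members (Dlg4, Shank2, Homer1, Dlgap1, Dlgap2 and Dlgap4) had every Het library above every WT library, with 17.9% of all genes doing so at 3 against 2. In males, 3 members (Shank1, Dlgap2 and Dlgap4) did so, with 8.15% of all genes at 3 against 3. Dlgap2 and Dlgap4 were thus separated in both sexes, a description only, since the share of all genes that do so was not counted. The Dlgap2 difference was 0.602 (SE 0.229) in females and 0.641 (SE 0.205) in males. The genotype by sex term called 0 of 13184 genes (0%) with limma. Of the 13184, 613 genes, among them Dlgap1, had an unadjusted p under 0.05, where chance alone gives a share of about 0.05. Between males and females 0.197% of genes were called, and no member was.

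Across libraries the members moved together only in part. The mean deviation of the 8 members from their own means ran from -0.334 to 0.027 in log2 over the WT libraries and from 0.028 to 0.314 over the Het libraries. WT replicate 11 was the highest WT library and Het replicate 4 the highest Het library. Het replicate 9, which had the highest striatal marker sum at 4293 CPM, was the highest Het library for Dlgap2, Dlgap4 and Homer1 and the lowest for Dlgap1, Dlgap3 and Shank1. Of the 28 pairs of members, 24 had a positive Pearson r over the 11 libraries, with a median of 0.272. The highest was Dlgap2 with Dlgap4 at 0.832, which was 0.525 within genotype and sex, and the lowest was Homer1 with Dlgap3 at -0.339. Within genotype and sex, 15 of 28 pairs were positive. These libraries share the correction and the genotype groups, so the values are descriptions.

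The genes outside the list that tracked the mean of the members most closely over the 11 libraries were Epb41l1 (r = 0.965), Camk2a (0.964), Egr2 (0.949), Dnmt3a (0.948) and Rbfox2 (0.944). Among the members, whose own values enter that mean, Dlgap2 (0.879), Dlg4 (0.829) and Dlgap4 (0.782) were nearest to it, and Shank1 (0.347) was the farthest. Of the genes outside the list, Camk2a, Egr2 (1.26 in log2), Dnmt3a (0.542) and Rbfox2 (0.399) rose in Het, and Epb41l1 (0.332, limma adjusted p = 0.0513) did not pass. The members' mean was itself higher in Het, so genes picked for tracking it tend to rise in Het by that choice. Their rise is therefore a description and not a separate result.

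Other components of the synapse were read from lists, given here by counts and medians. Over all genes, 2.3% were called higher in Het, 47.0% were positive and the median was -0.016. Among 20 other scaffolds of the density, 5 rose and none fell, with 16 positive and a median of 0.233. These were Dlg1 (0.29 in log2, 29.8 to 36.3 CPM), Dlg2 (0.38), both relatives of PSD-95, the scaffold Tanc2 (0.476), Lzts3 (0.524), and Baiap2 (0.474, 101 to 137 CPM), which binds Shank proteins and actin regulators, with limma adjusted p = 0.0107. Without WT replicate 11 and Het replicate 9, 2 of the 20 rose, and Dlg1, Dlg2, Tanc2 and Lzts3 did not pass. With 1 residual degree of freedom taken off, 1 rose. Among 12 signalling enzymes of the density, 2 rose, none fell and 12 were positive, at a median of 0.313. Camk2a, the alpha subunit of calcium/calmodulin kinase II, rose by 0.705 (124 to 199 CPM, limma adjusted p = 0.00624). Sipa1l1, a GTPase-activating protein for Rap, rose by 0.515 (20.1 to 28.2 CPM, limma adjusted p = 0.00646). Both passed without those 2 libraries.

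Among 18 receptors and adhesion proteins anchored in the density, 3 rose, none fell and 14 were positive, at a median of 0.165. They were Grin2b, a subunit of the NMDA receptor (0.533), Grm5, a metabotropic receptor linked by Homer1 (0.342), and the neuroligin Nlgn3 (0.365), which shares 3823 exonic bases with Gm21986. Grin2b shares exonic bases with genes on the opposite strand, as Pclo below does, and Dlg2 and Bsn with genes on their own strand, so their counts are uncertain to that extent. Of these 18, 0 passed limma without WT replicate 11 and Het replicate 9, or with 1 residual degree of freedom taken off. The inhibitory postsynapse, for comparison, had 9 of 10 tested genes positive, at a median of 0.254. The active zone of the presynapse had 3 of 11 that rose, Bsn (0.644), Pclo (0.426) and Cask (0.407), with 11 positive and a median of 0.203. Bsn and Pclo encode the large scaffolds bassoon and piccolo. Without WT replicate 11 and Het replicate 9, Pclo passed and Bsn and Cask did not. Among the genes named from these lists, Baiap2, Sipa1l1, Camk2a and Pclo passed in every run that left out 1 library, and Dlg1 and Lzts3 passed in the fewest, 2 of 11.

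**Figure D4:**
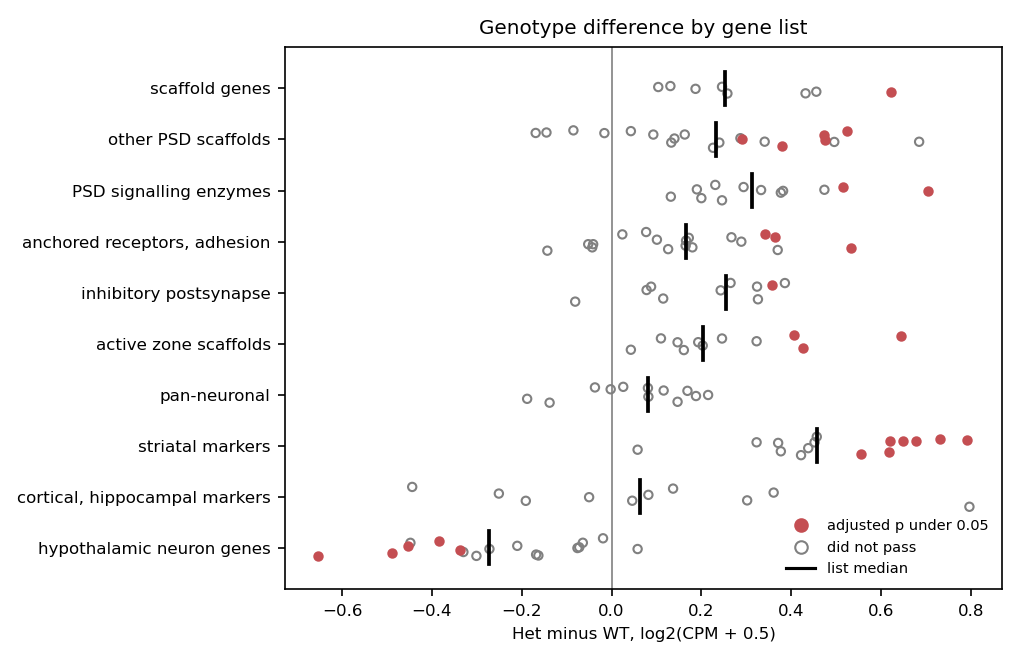
Differences Het minus WT in log2 of the genes in each list of synaptic components and cell type markers, each point a gene, with filled points past the limma threshold and a bar at the median of each list. The scaffold members have a median of 0.252, the striatal markers 0.457 and the hypothalamic neuron genes -0.272.

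The striatal and hypothalamic lists moved with the genotype in different directions. Of 15 striatal markers 7 rose and 15 were positive, with a median of 0.457. Of 17 hypothalamic neuron genes, in contrast, 5 fell and 1 was positive, with a median of -0.272. Over all 13184 genes, 303 were called higher and 150 lower in Het. The 12 pan-neuronal genes had a median of 0.082, with summed levels of 7790 to 8281 CPM in WT and 7431 to 8502 CPM in Het, and none passed. Of 10 cortical and hippocampal markers none passed (306 to 444 CPM in WT, 313 to 465 CPM in Het). Of 10 thalamic markers 1 rose and 8 were positive, with a median of 0.182. Of 8 choroid plexus and ependymal markers none passed and 1 was positive, with a median of -0.289. Medians were -0.044 for astrocyte, 0.025 for oligodendrocyte, 0.139 for oligodendrocyte precursor, -0.061 for microglia and -0.006 for endothelial markers. No marker was at 0 in all libraries. Without WT replicate 11 and Het replicate 9, 7 striatal markers rose and 3 hypothalamic neuron genes fell. These counts were 7 and 2 with quantile normalization, and 6 and 1 with length and GC taken out. With the striatal mean as a covariate, a fit that called 5 genes in all, none of the lists of synaptic components held a called gene, nor did any with the pan-neuronal mean. Among the called genes named from these lists, Grin2b (0.657), Bsn (0.883) and Pclo (0.58) had larger differences with the striatal covariate. Those of Sipa1l1 (0.502), Dlg1 (0.286), Grm5 (0.319), Dlg2 (0.346), Tanc2 (0.392) and Lzts3 (0.353) were smaller. So were those of Baiap2 (0.144), Camk2a (0.291), Nlgn3 (0.183) and Cask (0.202). The median of the active zone list was 0.202, that of the other scaffolds 0.165 and that of the receptors and adhesion proteins 0.087. Of the 8 members 6 were positive, at a median of 0.123. Because the striatal mean largely followed genotype, the fit cannot tell these apart. The part of these markers in the differences of the members was not tested.

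**Figure D5:**
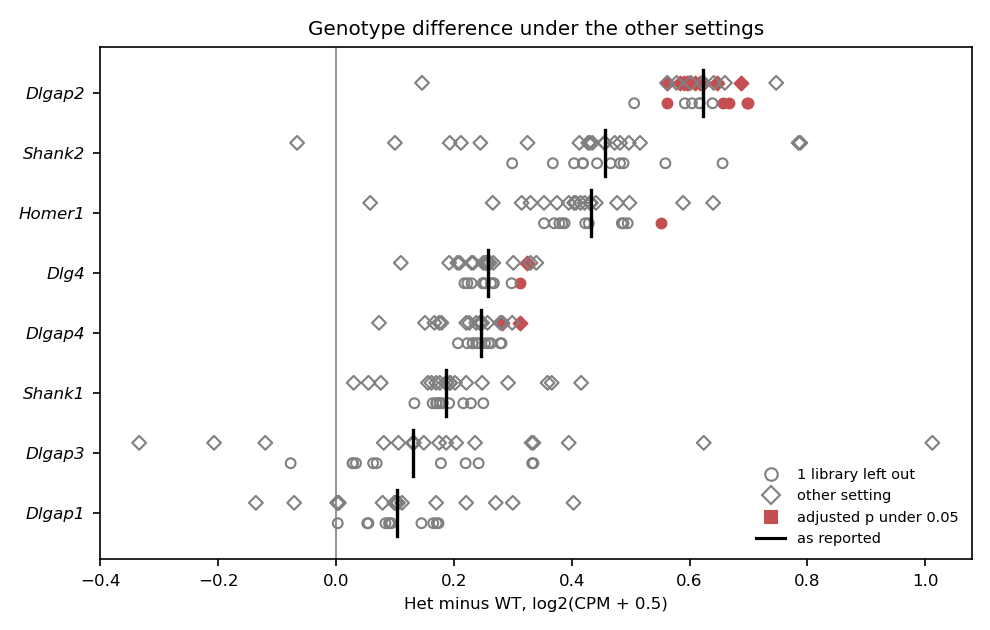
Difference Het minus WT in log2 of each scaffold gene under the alternative settings, with circles for runs that leave out 1 library, diamonds for the others, filled points past the limma threshold and a bar at the reported value. Dlgap2 ranges from 0.146 to 0.747 and passed in 16 of 31 alternatives.

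The scaling of the libraries bore on the calls. The deposited columns share an upper quartile but not a total, at a mean of 1025531 CPM in WT and 979427 CPM in Het. Scaled to the column total, a choice made after the data were seen, the median of all genes moved from -0.016 to 0.048, and 5.46% of genes were called higher in Het. The members called were then Dlg4 (0.324, limma adjusted p = 0.0416), Dlgap2 (0.687, 0.0155) and Dlgap4 (0.313, 0.0161).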

How the data were processed

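Total RNA of 11 hypothalamus libraries was measured by RNA-seq. Per the submitters' processing notes, Trimmomatic, Bowtie2, STAR and HTSeq were used with build mm10, without versions. The deposited values are log2 CPM, corrected by the authors with RUVr per the name of the table. No label or header gives the settings of that correction. The planned test assumed linear CPM, so CPM were recovered as the back-transformed value minus the floor of the table. limma 3.58.1 in R 4.3.3 (lmFit, eBayes with a trend) was fitted to log2(CPM + 0.5) with genotype and sex for the 13184 genes whose mean CPM reached 1, leaving out 1680. P-values are two-sided and Benjamini-Hochberg adjusted at 0.05. They do not account for the correction and may be too small. The raw depth is unknown, and the corrected totals cover counting error only. The fit was also run on simulated data, whose noise was independent between libraries and held no such correction as the authors made. That run therefore does not bear on whether the p-values are too small. Gene coordinates and lengths came from GENCODE M21, in which 14856 genes matched.

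The members and all lists were chosen with earlier results of these data known. Named genes are the members, Myt1l, and from each synaptic list the called genes or else up to 4 with the smallest p, plus the 5 genes most correlated with the members' mean. A result that this rule takes from the inhibitory list is not reported here. Alternatives covered pseudocount, filter, scaling, covariates, prefixes, sexes and each library left out.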

Additional observations from a re-analysis of the deposited data

Results flagged for a closer look

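Over 18 groups of member or Myt1l values, 2 held a library far from the others by Dixon's gap test, where chance flags about 1 in 20 groups. In WT, replicate 11 was the highest library for Dlgap2 at 10.46 CPM, with the other WT libraries at 7.04 to 7.97 CPM. In Het, replicate 9 was the highest library for Myt1l at 130 CPM, with the other Het libraries at 58.7 to 75.9 CPM. Without both libraries the Dlgap2 difference was 0.584 in log2 with a limma adjusted p of 0.0392, against 0.623 and 0.0327 with them.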

How the results depend on the processing

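The main run called 453 genes (303 higher and 150 lower in Het) and 1 member. Median centring called 233 higher and 243 lower, quantile normalization 362 and 102, and the column total 720 and 61. The number of genes called was 781 for the column total, 229 without WT replicate 11 and Het replicate 9, 200 without the sex term, 300 with the prefix as a block, 6 and 16 within prefixes 14308 and 14309, 189 with 1 residual degree of freedom taken off, 170 without a trend, 233 with length and GC taken out, 5 with the striatal covariate, 1 in males and, with limma, 0 in females (1981 genes at an unadjusted p under 0.05) and 0 with the pan-neuronal covariate (2136 genes). Leaving out 1 library at a time gave 140 to 820 genes, and 0 to 2 members. Members called were 3 for the column total, 2 for the prefix block (Dlgap2 and Dlgap4) and 0 in females, males, either prefix, the replicate block, 1 degree of freedom off, no trend, and the striatal and pan-neuronal covariates. The prefix block gives WT replicate 4, alone in its prefix, no weight. The median over members was 0.372 in females, 0.123 with the striatal covariate and 0.15 with length and GC taken out. In that last run 7 of 8 members were positive. Of the other scaffolds 1 then rose, of the signalling enzymes 2, and of the receptors and the active zone list 0. Their medians were 0.162, 0.195, 0.083 and 0.086, in that order.

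Signs turned for Dlgap3 in females (-0.120), in prefix 14309 (-0.207), with the striatal covariate (-0.334) and without WT replicate 3 (range over single libraries left out -0.077 to 0.335, and 0.395 without WT replicate 11 and Het replicate 9), for Dlgap1 in males (-0.136) and with length and GC taken out (-0.071), and for Shank2 with the striatal covariate (-0.066). The cause was not tested. For sex, 26 genes were called, with 10 to 62 over single libraries left out, 17 without WT replicate 11 and Het replicate 9, 6 with the prefix block, 11 with 1 degree of freedom off and 10 without a trend. The genotype by sex count was 0 in all runs.

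Replicate numbers 4 and 7 occur in both groups, but under different identifier prefixes, and the libraries numbered 7 differ in sex. The numbers are therefore not taken as pairs. The correlation of the deviations over 13184 genes was 0.131 for number 4 and -0.0919 for number 7, given as a description. With the replicate block 46 genes and 0 members were called. That fit holds no sex term and rests on numbers 4 and 7 only. It gives the libraries of every other number no weight on genotype.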
